A study of Mus musculus with 8 samples.

Results

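Apolipoproteins are the proteins that coat lipoprotein particles and steer their fat and cholesterol through the blood. The group described here held 10 apolipoprotein genes of the mouse, namely Apoa1, Apoa2, Apoa4, Apoa5, Apob, Apoc1, Apoc3, Apoe, Apom and Apoh. Each was taken from the transcript cluster, the set of probes read as 1 unit on the array, whose annotation names that gene and no other. All 10 were found with exactly 1 such cluster each, among 22180 genes measured in this way. Livers were taken from male offspring of C57BL/6J dams at 24 weeks of age, 4 in the HFD PN and 4 in the Ctrl PN group, with 1 Affymetrix Mouse Gene 2.1 ST array per liver. HFD PN offspring had been nursed by dams eating a 60% high-fat diet from birth to weaning. Ctrl PN offspring had been nursed by dams on standard chow, for which the sample labels and the paper name different products. Both groups were weaned onto the normal diet, and the livers were collected without fasting. The question was whether the diet of the nursing dam was associated with a different level of these transcripts in the adult liver. Replicate numbers are used below only as names of livers (HFD PN 1 to 4 and Ctrl PN 1 to 4).

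The liver packs triglyceride and cholesterol around apolipoprotein B into very low density lipoprotein (VLDL) and secretes it. The microsomal transfer protein loads the lipid as the protein is made, lipases in the capillaries then unload the triglyceride, and receptors in the liver take up the remnants. High density lipoprotein (HDL) is built on apolipoproteins A-I and A-II and carries cholesterol back to the liver. The small apolipoproteins of the C group and apolipoproteins E and A-V move between particles and set how fast lipases and receptors act on them. In the mouse, liver and intestine are the main sources of most of these proteins, and the liver edits part of its Apob messenger RNA into the shorter B-48 form.

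Several of the genes are neighbours. In the RefSeq annotation of GRCm38.p6, Apoa1, Apoc3, Apoa4 and Apoa5 follow each other on chromosome 9, and Apoc1 and Apoe stand next to each other on chromosome 7 after Apoc2 and Apoc4. Apoa2 lies on chromosome 1, Apoh on chromosome 11, Apob on chromosome 12 and Apom on chromosome 17. No source used here names the build behind the array's probes, and no probe coordinates are reported. The bases before the start site are shown for Apoa4, which had the widest range over the 8 livers, and for the 4 genes that were low together on 2 arrays described below. They are RefSeq sequences of GRCm38.p6 on the plus strand, read 5′ to 3′, and all but that of Apob end at the base before the start site. They stand at chr9:46240594-46240843 for Apoa4, chr9:46228380-46228629 for Apoa1, chr9:46268358-46268607 for Apoa5, chr12:7977427-7977628 for Apob and chr11:108395047-108395296 for Apoh. The Apob stretch was shortened to 202 bases, ending upstream of its start site, so that it holds no base of any annotated transcript. Capitals mark the letters TATAAA, the core of a TATA box, or AGGTCA, the nuclear receptor recognition motif, which reads TGACCT where it lies on the minus strand.
Apoa4: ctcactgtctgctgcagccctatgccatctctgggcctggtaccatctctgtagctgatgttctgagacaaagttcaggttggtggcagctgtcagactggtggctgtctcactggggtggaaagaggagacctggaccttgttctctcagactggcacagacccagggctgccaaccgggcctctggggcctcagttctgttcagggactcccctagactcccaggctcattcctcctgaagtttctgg
Apoa1: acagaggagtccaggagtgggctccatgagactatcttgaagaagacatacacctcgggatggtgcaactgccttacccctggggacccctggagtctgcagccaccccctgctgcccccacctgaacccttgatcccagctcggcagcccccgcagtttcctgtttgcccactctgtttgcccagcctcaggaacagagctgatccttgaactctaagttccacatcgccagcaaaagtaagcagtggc
Apoa5: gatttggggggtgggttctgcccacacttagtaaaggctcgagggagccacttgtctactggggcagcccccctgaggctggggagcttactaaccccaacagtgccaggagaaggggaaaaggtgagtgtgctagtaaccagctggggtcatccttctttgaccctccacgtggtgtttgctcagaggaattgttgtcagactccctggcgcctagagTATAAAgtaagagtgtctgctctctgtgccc
Apob: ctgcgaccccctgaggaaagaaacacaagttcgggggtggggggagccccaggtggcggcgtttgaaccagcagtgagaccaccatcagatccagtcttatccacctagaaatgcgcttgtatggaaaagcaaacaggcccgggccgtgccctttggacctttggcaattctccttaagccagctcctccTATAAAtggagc
Apoh: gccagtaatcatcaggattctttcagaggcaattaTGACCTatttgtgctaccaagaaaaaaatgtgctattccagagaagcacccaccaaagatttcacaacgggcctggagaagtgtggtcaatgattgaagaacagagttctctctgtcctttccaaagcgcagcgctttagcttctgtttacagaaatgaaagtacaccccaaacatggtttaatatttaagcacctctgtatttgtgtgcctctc
Both strands were searched in the 250 bases before each start site of 27025 genes. TATAAA stood before a start site of 4 of the 8 apolipoprotein genes with sequences (Apoa2, Apoa5, Apob and Apoe) and of 14.3% of all genes. For Apoa2 and Apoe it stood only before start sites farther inside the gene, in bases within the gene's own annotated span. AGGTCA stood before Apoa2 and Apoh, 2 of the 8, and before 15.8% of all genes. The longer letters CAAAGTCCA and CAAAGGTCA, which match the binding site of the liver factor HNF4A, were before 0 of the 8 genes, against 0.451% and 0.485% of all genes. The 4 genes that were low together did not share any of these letters, since the Apoa1 stretch held none and the Apoh stretch no TATAAA.

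None of the 10 apolipoprotein genes passed the exploratory threshold of an unadjusted p under 0.01 in the comparison of HFD PN with Ctrl PN livers by limma, which 123 of the 22180 genes, or 0.555%, passed (0.194% higher and 0.361% lower in HFD PN). Only Apoa4, with 1.41-fold the Ctrl PN level in HFD PN livers, lay under an unadjusted p of 0.05, a range that held 774 genes or 3.49% of all. None passed after Benjamini-Hochberg adjustment over all genes, as for the whole array, where 0 genes passed (0%). Of the 10 differences 6 were positive and 4 negative, with a median of 0.01 on the log2 scale, against 44.1% positive and a median of -0.02 over all genes. The 2 groups overlapped for every one of the 10 genes, whereas they did not overlap for 626 genes, or 2.82% of all (0.726% higher and 2.1% lower in HFD PN). No source used here says which litter a liver came from, and the p-values treat the 8 livers as independent. The diet was given to the dams, so if livers shared a litter, these p-values could be too small. Directions follow the groups in the sample labels. Values below are log2 expression values, and since each probe set has its own scale, the 10 genes are not ranked by level and the median of all clusters serves only as a rough mark of a low signal.

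**Figure D1:**
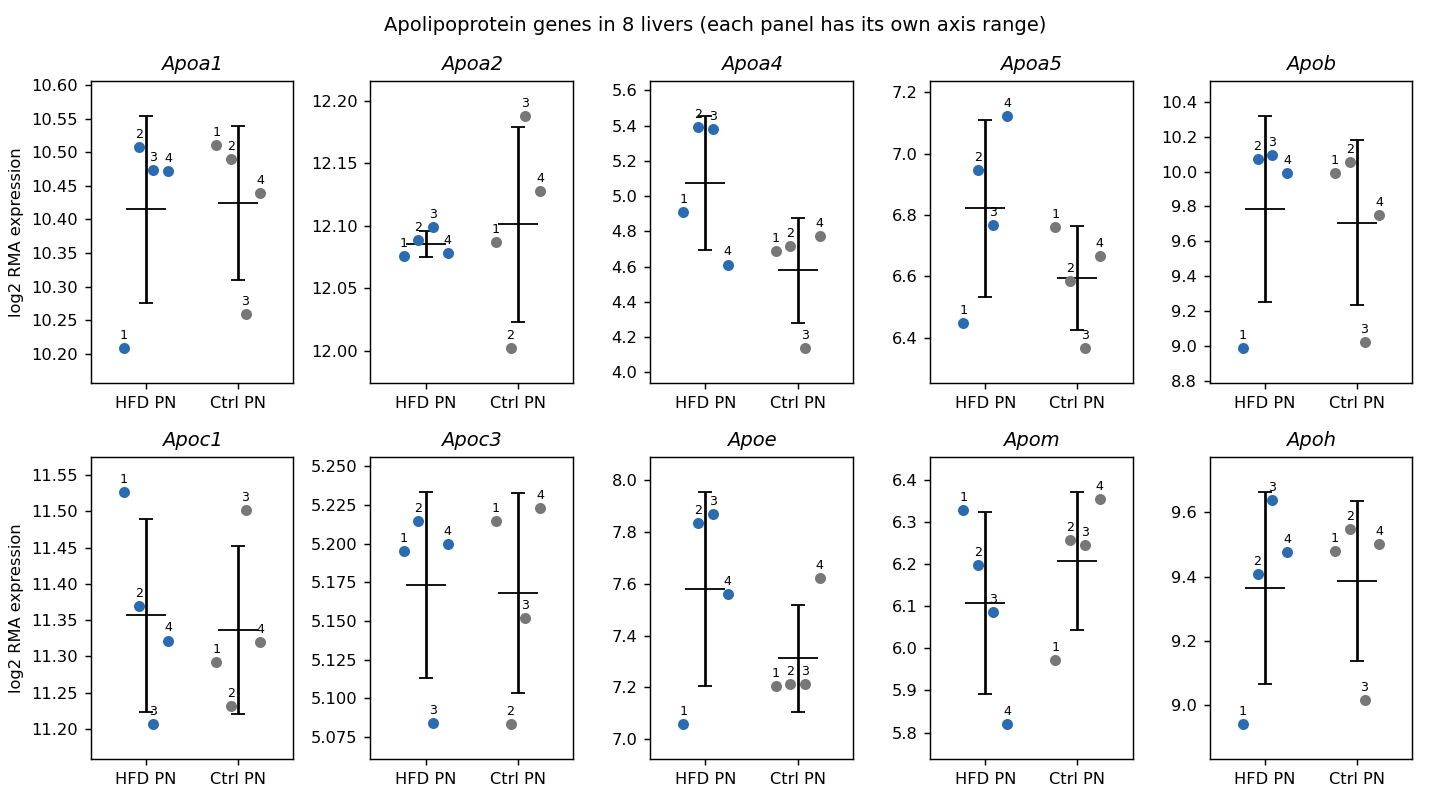
Log2 expression of the 10 apolipoprotein genes in each liver, 1 panel per gene, with the 4 HFD PN livers left of the 4 Ctrl PN livers; points are livers, numbers name them, and the line and bar give the mean and the SD. The groups overlapped in every panel, Apob was near 9 in HFD PN 1 and Ctrl PN 3 against 9.75 to 10.09 in the other livers, and 3 of the 4 HFD PN livers lay above every Ctrl PN liver for Apoa4 and for Apoa5.

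2 of the 8 arrays stood apart from the rest, and the apolipoprotein values have to be read beside this. Across all genes, which are not independent replicates, HFD PN 1 correlated with the other arrays at Pearson's r of 0.945 to 0.968 and Ctrl PN 3 with the remaining 6 at 0.969 to 0.979, while those 6 correlated with each other at 0.986 to 0.991. The upper quartile of all genes was 2.64 in HFD PN 1 and 2.92 in Ctrl PN 3, against 3.16 to 3.31 in the other 6 arrays. Both groups held 1 such array. The differences of the 10 genes are therefore also given without these 2 livers, here or with the processing alternatives. The hepatocyte markers averaged 9.69 in HFD PN 1 and 9.54 in Ctrl PN 3, against 9.93 to 10.07 in the other livers, for 18 of the 20 listed genes that could be measured. Albumin lay between 12.13 and 12.35 in all 8 livers, close to the highest value on any array, 12.83. The 10 genes with a mean of 12 to 14 had a median shift of -0.07 on the 2 arrays, so albumin was not singular in this. Of 8 intestinal markers 7 had mean values below the median of all clusters (1.55), and Fabp2, the intestinal fatty acid binding protein, lay between 8.12 and 9.05. The mean of the stellate cell markers was 2.91 to 3.41 in HFD PN and 3.27 to 3.60 in Ctrl PN livers, with 7 of 10 lower in HFD PN by the fitted difference and 3 higher. Reln, at -0.83, passed 0.01 (limma, unadjusted p = 0.000945, adjusted p = 0.99988), beside 0.361% of all genes lower at 0.01. Reln and Col3a1 were lower without overlap of the groups, beside 2.1% of all genes. The mean of the cholangiocyte markers was 1.68 to 1.90 in HFD PN and 1.74 to 1.84 in Ctrl PN livers, and that of the lymphocyte markers 1.54 to 1.74 in HFD PN and 1.63 to 1.69 in Ctrl PN livers. Of 6 erythroid markers 1 was measured by a cluster of its own, Slc4a1, at 1.14 to 1.42 in HFD PN and 1.47 to 2.18 in Ctrl PN livers. In bulk tissue, fewer cells of a type and less RNA per cell cannot be told apart.

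Apob encodes the single large protein that forms the backbone of VLDL, and its transcript varied between livers almost entirely through the 2 arrays that stood apart. It measured 8.99, 10.07, 10.09 and 9.99 in HFD PN 1, 2, 3 and 4, against 9.99, 10.06, 9.02 and 9.75 in Ctrl PN 1, 2, 3 and 4. One liver of each group was thus about 1 log2 unit low, and the other 6 lay between 9.75 and 10.09. The means were 9.78 ± 0.53 in HFD PN and 9.71 ± 0.47 in Ctrl PN livers (SD, n = 4 each). The difference of 0.08 had a 95% interval of -0.61 to 0.77 (limma, unadjusted p = 0.801, exact two-sided permutation p = 0.714). Without the 2 livers it was 0.12, with an interval of -0.14 to 0.37. The sign turned to -0.15 without Ctrl PN 3 alone and the value was 0.35 without HFD PN 1 alone.

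Apoh encodes beta-2-glycoprotein I, a plasma protein that binds phospholipids. Its values were 8.94, 9.41, 9.64 and 9.48 in HFD PN livers, against 9.48, 9.55, 9.02 and 9.50 in Ctrl PN livers. HFD PN 1 and Ctrl PN 3 were again the lowest of their groups. The means were 9.37 ± 0.30 in HFD PN and 9.39 ± 0.25 in Ctrl PN livers (SD, n = 4 each), a difference of -0.02 with an interval of -0.42 to 0.38 (limma, unadjusted p = 0.912, exact permutation p = 0.829). It was -0.0023 without these livers, with an interval of -0.23 to 0.23. The sign of this small difference turned to 0.01 when arrays were centred on their medians, to 0.03 with array weights and to 0.12 without HFD PN 1.

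Among the HDL proteins, Apoa1 encodes the main structural protein of the particle and the cofactor of the enzyme LCAT. It measured 10.21, 10.51, 10.47 and 10.47 in HFD PN livers, against 10.51, 10.49, 10.26 and 10.44 in Ctrl PN livers. Again HFD PN 1 and Ctrl PN 3 were lowest, and the other 6 livers lay within 10.44 to 10.51. The means were 10.42 ± 0.14 in HFD PN and 10.43 ± 0.11 in Ctrl PN livers (SD, n = 4 each). The difference of -0.01 had an interval of -0.25 to 0.23 (limma, unadjusted p = 0.928, exact permutation p = 0.771), and its sign depended on the scaling and on single livers.

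Apoa2 encodes the second structural protein of HDL, and its transcript had the narrowest spread within the groups. It measured 12.076, 12.089, 12.099 and 12.078 in HFD PN livers, against 12.087, 12.002, 12.188 and 12.128 in Ctrl PN livers. The 4 HFD PN values fell inside the range of the Ctrl PN values. The SD was 0.01 in HFD PN and 0.08 in Ctrl PN livers (n = 4 each), and the difference between the means was -0.02 with an interval of -0.20 to 0.17 (limma, unadjusted p = 0.851, exact permutation p = 0.657). HFD PN 1 was narrowly the lowest HFD PN liver and Ctrl PN 3 the highest of all 8.

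Apom encodes a lipocalin that rides on HDL and carries sphingosine 1-phosphate. Its transcript had the most negative of the 10 differences. The values were 6.328, 6.197, 6.086 and 5.820 in HFD PN livers, against 5.972, 6.257, 6.245 and 6.355 in Ctrl PN livers. HFD PN 4 was the lowest liver of all and the other 3 HFD PN livers lay within the Ctrl PN range. The means were 6.11 ± 0.22 in HFD PN and 6.21 ± 0.16 in Ctrl PN livers (SD, n = 4 each). The difference of -0.10 had an interval of -0.41 to 0.21 (limma, unadjusted p = 0.479, exact permutation p = 0.514), and as single livers were left out it ran between -0.18 (without Ctrl PN 1) and -0.0039 (without HFD PN 4). Without HFD PN 1 and Ctrl PN 3 it was -0.16, with an interval of -0.48 to 0.16.

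The remaining genes act on triglyceride-rich particles. Apoa4 encodes a protein of intestinal and, in mice, hepatic particles that is known to respond to fat load. Its transcript had the widest range over the 8 livers, 1.26 log2 units, and the largest of the 10 differences. It measured 4.91, 5.39, 5.38 and 4.61 in HFD PN livers, against 4.69, 4.72, 4.14 and 4.77 in Ctrl PN livers. HFD PN 1, 2 and 3 lay above every Ctrl PN liver, HFD PN 4 lay within the Ctrl PN range, and Ctrl PN 3 was lowest of all. The means were 5.07 ± 0.38 in HFD PN and 4.58 ± 0.30 in Ctrl PN livers (SD, n = 4 each), a difference of 0.50 with a standard error of 0.21 and an interval of 0.01 to 0.98. The unadjusted p was 0.0458 in limma, the adjusted p 0.99988 and the exact two-sided permutation p 0.114, where 4 livers against 4 cannot give less than 0.0286. Without HFD PN 1 and Ctrl PN 3 the difference was 0.40, with an interval of -0.04 to 0.85 and an unadjusted p of 0.0705 in limma. Leaving out 1 liver at a time gave 0.35 (without Ctrl PN 3) to 0.65 (without HFD PN 4), with unadjusted p-values of 0.0115 to 0.122 from limma. The sign was positive under every alternative run, and the unadjusted p from limma was 0.0745 with a trended and robust variance.

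Apoa5 encodes a scarce plasma protein that promotes the hydrolysis of triglyceride by lipoprotein lipase, and it follows Apoa4 on chromosome 9. It measured 6.45, 6.95, 6.77 and 7.12 in HFD PN livers, against 6.76, 6.59, 6.37 and 6.67 in Ctrl PN livers. HFD PN 2, 3 and 4 lay above every Ctrl PN liver, and HFD PN 1 lay between Ctrl PN 3 and Ctrl PN 2. The means were 6.82 ± 0.29 in HFD PN and 6.60 ± 0.17 in Ctrl PN livers (SD, n = 4 each), a difference of 0.23 or 1.17-fold, with an interval of -0.13 to 0.58 (limma, unadjusted p = 0.182, exact permutation p = 0.229). Without HFD PN 1 and Ctrl PN 3 the difference was 0.28, with an interval of 0.01 to 0.54 (limma, unadjusted p = 0.0458, adjusted p = 0.589). It was 0.35 without HFD PN 1 and 0.13 without HFD PN 4. Across all genes, 2.24% passed an unadjusted p of 0.01 in limma without HFD PN 1 and Ctrl PN 3, against 0.555% with them. Apoa5 did not pass 0.01 in that setting, where the share of all genes under 0.05 was not counted.

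Apoe encodes the ligand through which remnant particles bind hepatic receptors, and macrophages and adipocytes also make it. It measured 7.06, 7.84, 7.87 and 7.56 in HFD PN livers, against 7.20, 7.21, 7.21 and 7.62 in Ctrl PN livers. HFD PN 2 and 3 lay above every Ctrl PN liver, HFD PN 1 lay below every one, and 3 Ctrl PN livers were within 0.01 of each other. The means were 7.58 ± 0.37 in HFD PN and 7.31 ± 0.21 in Ctrl PN livers (SD, n = 4 each), a difference of 0.27 or 1.21-fold, with an interval of -0.17 to 0.70 (limma, unadjusted p = 0.196, exact permutation p = 0.257). Without HFD PN 1 and Ctrl PN 3 it was 0.41, with an interval of 0.08 to 0.74 (limma, unadjusted p = 0.0201, adjusted p = 0.494). It was 0.44 without HFD PN 1 and 0.17 without HFD PN 3. More genes passed 0.01 in limma over the whole array without HFD PN 1 and Ctrl PN 3, 2.24% against 0.555%. Apoe was not among them, and the share of all genes under 0.05 was not counted without these livers.

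Markers of the other cells that make Apoe moved unevenly between the livers. Of 12 macrophage markers 11 had negative differences, and their summed linear level was 424 to 560 in HFD PN and 486 to 616 in Ctrl PN livers. Of 6 measured adipocyte markers 5 had positive differences, and their summed linear level was 39.4 to 227 in HFD PN and 31.5 to 53.1 in Ctrl PN livers, with the highest in HFD PN 2. In that liver Fabp4, the adipocyte fatty acid binding protein, was at 7.45, Retn, which encodes resistin, at 4.52 and the lipid droplet genes Cidec at 4.32 and Plin1 at 2.05, while the adipocyte hormones Adipoq at 1.24 and Lep at 0.97 lay below the median of all clusters. Fabp4, Retn and Cidec were highest in this liver, whereas Plin1 was highest in Ctrl PN 3 at 2.08. Without HFD PN 2 the difference of Apoe was 0.18 and that of Apoa4 0.39. The part of these cells in the values of Apoe was not tested.

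Apoc1 encodes a small protein that slows the uptake of remnants, and it lies next to Apoe. It measured 11.53, 11.37, 11.21 and 11.32 in HFD PN livers, against 11.29, 11.23, 11.50 and 11.32 in Ctrl PN livers. HFD PN 1 and Ctrl PN 3 were here the highest of the 8 livers, opposite to Apoe, for which HFD PN 1 was the lowest. The means were 11.36 ± 0.13 in HFD PN and 11.34 ± 0.12 in Ctrl PN livers (SD, n = 4 each). The difference of 0.02 had an interval of -0.22 to 0.26 (limma, unadjusted p = 0.853, exact permutation p = 0.743), and it was -0.00038 when arrays were centred on their 75th percentiles. With those 2 livers left out it was 0.02, with an interval of -0.20 to 0.24.

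Apoc3 encodes an inhibitor of lipoprotein lipase and of remnant uptake, and it lies between Apoa1 and Apoa4. It measured 5.20, 5.21, 5.08 and 5.20 in HFD PN livers, against 5.21, 5.08, 5.15 and 5.22 in Ctrl PN livers. All 8 livers lay within 0.14 log2 units, the narrowest range of the 10 genes. The difference was 0.01 with an interval of -0.18 to 0.20 (limma, unadjusted p = 0.9498, exact permutation p = 0.914), and its sign turned under other scalings.

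**Figure D2:**
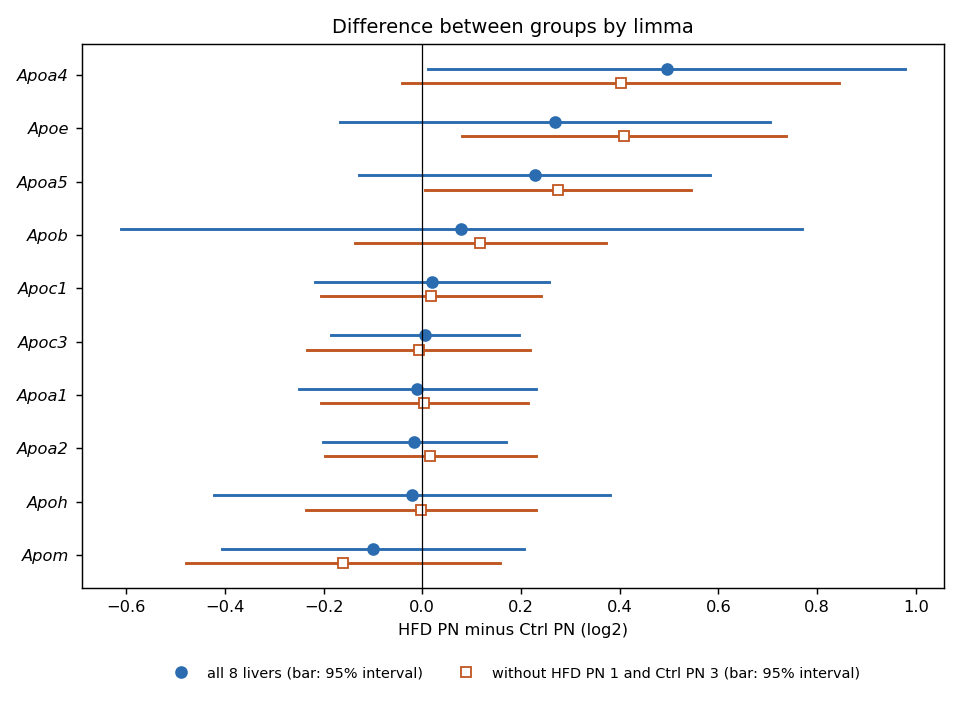
Log2 difference between HFD PN and Ctrl PN livers (HFD PN minus Ctrl PN) for the 10 apolipoprotein genes from limma, with 95% intervals, over all 8 livers (filled circles) and without HFD PN 1 and Ctrl PN 3 (open squares). Over all 8 livers the interval of Apoa4 alone excluded 0, at 0.01 to 0.98, and without the 2 livers those of Apoa5 and Apoe did and that of Apoa4 did not. Across all genes, 2.24% passed an unadjusted p of 0.01 in limma without the 2 livers, against 0.555% with them. Neither Apoa5 nor Apoe passed 0.01 there, and the share of all genes under 0.05 was not counted in that setting. None of the 10 genes passed adjustment in either setting.

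The SD within the groups, pooled over both, ranged from 0.0556 for Apoa2 and 0.0624 for Apoc3 to 0.342 for Apoa4 and 0.505 for Apob. Over the 2561 genes with a mean of at least 4.83, the lowest mean among the 10, the median was 0.342 and the quartiles were 0.224 and 0.505. Apoa2, Apoc3, Apoc1, Apoa1 and Apom lay under the lower quartile, and Apoa5, Apoh and Apoe lay between it and the median. This reference was not matched for level. Apoa2, Apoc1 and Apoa1 had means of 12.09, 11.35 and 10.42, where the highest value on any array was 12.83. The part of this high level in their spread was not tested. The 10 genes thus had a precision that ran from under 0.1 to over 0.3 log2 units in the standard error of the difference (0.082 for Apoa2 and 0.304 for Apob).

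The 2 arrays that stood apart moved the apolipoprotein genes to different extents. HFD PN 1 and Ctrl PN 3 were both below all 6 other livers for Apoa1, Apoa5, Apob and Apoh, a pattern of 19.7% of all genes, and both above them for Apoc1, a pattern of 9.73% of all genes. The mean of the 2 arrays minus that of the other 6 was -0.99 for Apob, -0.53 for Apoh, -0.42 for Apoe, -0.40 for Apoa4, -0.40 for Apoa5 and -0.25 for Apoa1. It was 0.22 for Apoc1, 0.17 for Apom, 0.05 for Apoa2 and 0.0036 for Apoc3. Among the 312 genes with a mean of 8 to 10, the level of Apob, the median shift was -0.14 and the quartiles were -0.58 and 0.37, so that Apob lay below the lower quartile and Apoh at -0.53 just inside it. Among the 2453 genes with a mean of 4 to 6 the median shift was -0.59, and Apoc3 lay above the upper quartile of -0.14. The shift is given as a description, since the 2 arrays were chosen for standing apart.

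**Figure D3:**
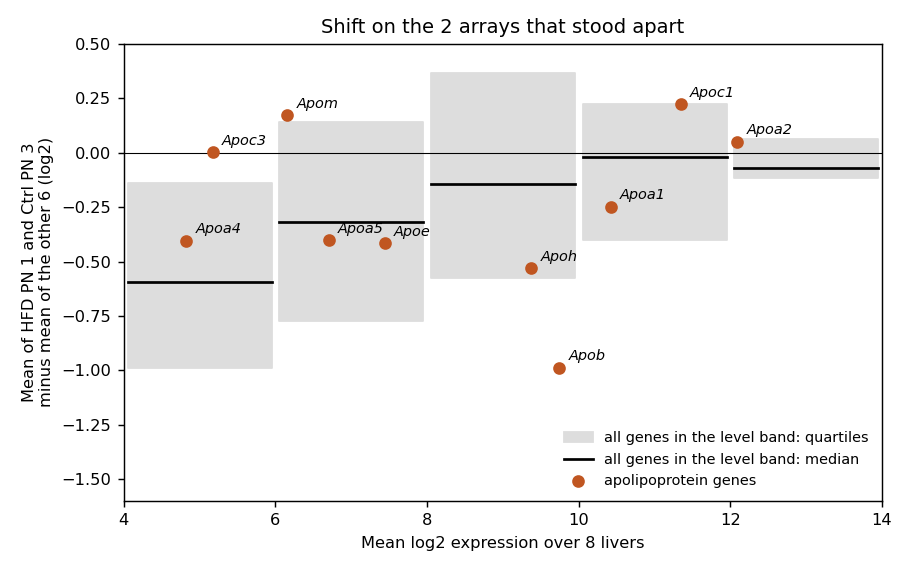
Mean of HFD PN 1 and Ctrl PN 3 minus the mean of the other 6 livers (y axis, log2) against the mean over all 8 livers (x axis, log2) for the 10 apolipoprotein genes; boxes give the quartiles and lines the median of all genes in each band of 2 log2 units. Apob at -0.99 lay below the quartiles of its band and Apoc3 at 0.0036 and Apom at 0.17 above those of theirs.

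**Figure D4:**
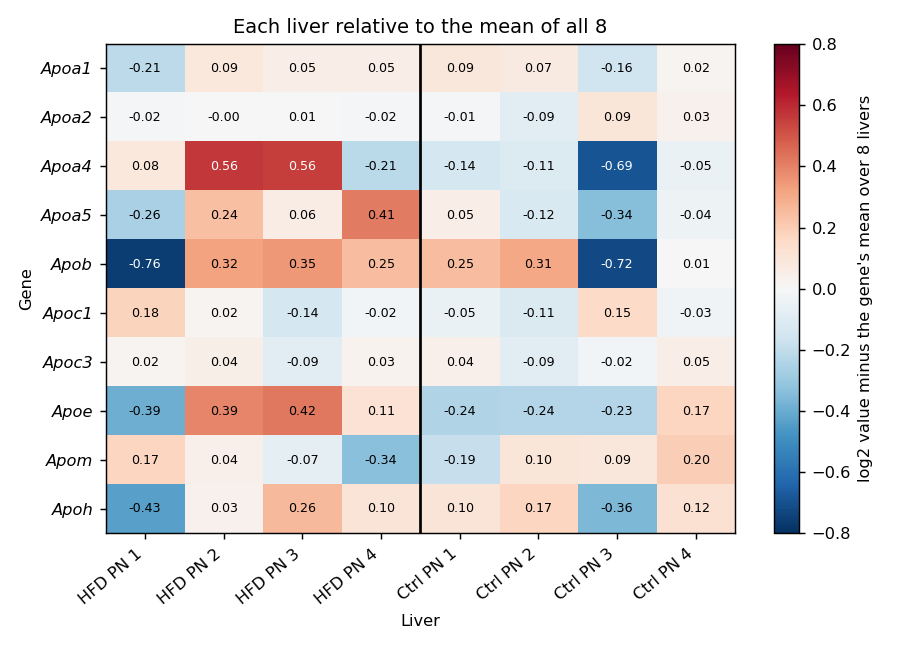
Deviation of each liver from the gene's mean over 8 livers (log2), with genes in rows and the 4 HFD PN livers left of the 4 Ctrl PN livers. HFD PN 1 was the lowest of the 8 livers for 4 genes and the highest for 1, and the HFD PN 2 and 3 columns were high for Apoa4 and Apoe.

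The 5 genes whose profile over the 8 livers was most like that of Apoa4 were Junb, Wdr75, Gmeb1, Inip and Rint1. Likeness was the root mean square difference after each gene was centred on its own mean, and it was 0.172, 0.183, 0.193, 0.194 and 0.196. Junb, an immediate early transcription factor, measured 3.42, 3.67, 4.07 and 3.27 in HFD PN livers, against 3.41, 3.22, 3.02 and 3.25 in Ctrl PN livers. Of the other apolipoprotein genes Apoe came closest at 0.289, in place 277 of all genes. Apoa1 at 0.355, Apoh at 0.357 and Apoa5 at 0.358 followed in places 2163, 2247 and 2295. Apoc3, whose 8 values lay within 0.14 log2 units, came next at 0.394 in place 5322. A gene that hardly varies can thus lie nearly as close. The values from Apoa1 to Apoc3 therefore do not show a profile like that of Apoa4.

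Genes that build, remodel, take up and control lipoproteins were described from 5 lists of 83 genes, of which 72 were measured by a cluster naming 1 gene. None of the 72 passed an unadjusted p under 0.01 in limma, beside 0.555% of all genes, and 3 passed 0.05, beside 3.49% of all. The median difference over the 72 was 0.04, with 42 positive and 30 negative. The medians of the single lists were 0.07 for 11 other apolipoproteins, 0.02 for 15 genes of assembly and secretion, 0.09 for 11 of remodelling, -0.06 for 15 receptors and efflux transporters and 0.07 for 20 regulators.

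The 3 genes under 0.05 were Angptl8 and Angptl4, higher in HFD PN, and Pla2g7, lower in HFD PN. All were from the remodelling list, which was drawn up by that role, so their shared role is not a result. Angptl8 encodes a feeding-induced hepatic protein that takes part in the inhibition of lipoprotein lipase. It measured 6.05, 7.55, 5.73 and 6.07 in HFD PN livers, against 5.77, 4.50, 5.30 and 5.46 in Ctrl PN livers. 3 HFD PN livers lay above every Ctrl PN liver, and HFD PN 3 lay just under Ctrl PN 1. The difference was 1.09 with an interval of 0.16 to 2.02 (limma, unadjusted p = 0.0265, exact permutation p = 0.0571), and it was 0.69 without HFD PN 2 and 1.21 without HFD PN 1 and Ctrl PN 3. Angptl4, a lipase inhibitor induced by fatty acids, measured 4.802, 6.060, 5.394 and 5.499 in HFD PN livers, against 4.913, 4.520, 5.168 and 4.812 in Ctrl PN livers. HFD PN 2, 3 and 4 lay above every Ctrl PN liver and HFD PN 1 did not. The difference was 0.59 with an interval of 0.02 to 1.16 (limma, unadjusted p = 0.0452, exact permutation p = 0.114). It was 0.38 without HFD PN 2, the liver with the highest adipocyte marker sum. Of these markers Fabp4, Retn and Cidec were highest there, Plin1 was not, and Adipoq and Lep lay below the median of all clusters. The difference was 0.80 without HFD PN 1, where the unadjusted p was 0.00274 in limma. It was 0.90 without HFD PN 1 and Ctrl PN 3 (limma, unadjusted p = 0.000824, adjusted p = 0.343). Of all genes, 2.22% passed 0.01 in limma without HFD PN 1 and 2.24% without both livers, against 0.555% with all 8. The part of adipocytes, which also make Angptl4 and Angptl8, was not tested.

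Pla2g7 encodes the lipoprotein-associated phospholipase A2, which macrophages make. It measured 1.66, 1.72, 1.64 and 1.62 in HFD PN livers, against 1.89, 2.04, 1.87 and 1.93 in Ctrl PN livers. It was the one gene of the 72 whose groups did not overlap, beside 2.1% of all genes lower in HFD PN without overlap. The difference was -0.27 with an interval of -0.46 to -0.08 (limma, unadjusted p = 0.0109, exact permutation p = 0.0286). These levels were close to the median of all clusters, 1.55, and the macrophage markers were lower in 11 of 12 genes by their fitted difference, with their part in this value not tested.

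Of the other apolipoproteins, Apobr, the receptor of macrophages for B-48 particles, differed by -0.22, Apon by 0.24 and Saa4, a constitutive serum amyloid A carried on HDL, by 0.40, and none passed (limma, unadjusted p of 0.123 to 0.245). Leaving out 1 liver gave 0.17 (without HFD PN 2) to 0.68 (without HFD PN 1) for Saa4, 0.10 (without Ctrl PN 3) to 0.30 for Apon and -0.30 to -0.15 for Apobr. The means of Apobr, 1.53 in HFD PN and 1.75 in Ctrl PN livers, were close to the median of all clusters, 1.55. Saa2, an acute phase serum amyloid A, was singled out after its values were seen. It measured 8.30, 6.22, 4.53 and 4.52 in HFD PN livers, against 6.17, 5.56, 4.86 and 4.93 in Ctrl PN livers, a difference of 0.51 (limma, unadjusted p = 0.533). HFD PN 1, where it was highest, also had the highest mean of the 8 neutrophil markers, 2.23 against 1.32 to 1.59 in the other livers. S100a8 was at 3.52 and S100a9 at 3.61 there, against at most 1.97 and 1.71 in the other livers, while Elane, Mpo and Ngp were highest in Ctrl PN livers. The part of neutrophils in the value of Saa2 was not tested. Apoc2, the activator of lipoprotein lipase, from the same chromosome 7 cluster as Apoc1, measured 8.49, 8.15, 7.90 and 8.14 in HFD PN livers, against 7.82, 7.85, 8.23 and 8.22 in Ctrl PN livers, a difference of 0.14 (limma, unadjusted p = 0.396).

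In assembly and secretion, the smallest p-values belonged to Sar1b, the small GTPase that sends particles out of the endoplasmic reticulum, Dgat1, which makes triglyceride, and Apobec1, the enzyme that edits the Apob messenger RNA. Their differences were 0.17, 0.25 and 0.22, and none passed (limma, unadjusted p of 0.251 to 0.380). Single livers moved these values over 1.5 times, to 0.03 without Ctrl PN 3 and 0.43 without Ctrl PN 1 for Dgat1, to 0.03 without HFD PN 2 and 0.44 without HFD PN 1 for Apobec1, and to 0.07 without Ctrl PN 2 for Sar1b. Mttp, the microsomal transfer protein that loads lipid on Apob, measured 5.929, 6.933, 6.981 and 6.997 in HFD PN livers, against 6.942, 6.943, 6.090 and 6.709 in Ctrl PN livers. As for Apob, HFD PN 1 and Ctrl PN 3 were the low livers of Mttp. It is given as the partner of Apob and was chosen after its values were seen.

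Among receptors and transporters, Abcg1, a sterol efflux transporter, differed by -0.30, Cd36, a fatty acid and lipoprotein receptor, by 0.20 and Stab1, a scavenger receptor of sinusoidal endothelium, by -0.21, and none passed (limma, unadjusted p of 0.165 to 0.295). Of 10 endothelial markers 9 had negative differences, and their part in the value of Stab1 was not tested. Leaving out 1 liver gave -0.45 (without Ctrl PN 4) to -0.17 (without HFD PN 1) for Abcg1, 0.13 (without HFD PN 4) to 0.31 (without Ctrl PN 4) for Cd36 and -0.38 (without Ctrl PN 3) to -0.11 (without HFD PN 1) for Stab1. The means of Abcg1, 1.77 in HFD PN and 2.07 in Ctrl PN livers, were not far above the median of all clusters, 1.55. Among regulators the differences were -0.34 for Esrra, 0.29 for Ppargc1a and 0.22 for Rora, which encode nuclear receptors and a coactivator of oxidative metabolism, and none passed (limma, unadjusted p of 0.128 to 0.281). Leaving out 1 liver gave -0.54 (without HFD PN 3) to -0.20 (without HFD PN 1) for Esrra, 0.12 (without HFD PN 3) to 0.47 (without HFD PN 1) for Ppargc1a and 0.12 (without HFD PN 4) to 0.36 (without HFD PN 1) for Rora. Hnf4a, the hepatocyte nuclear receptor that binds many apolipoprotein promoters, differed by 0.09 (limma, unadjusted p = 0.759).

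**Figure D5:**
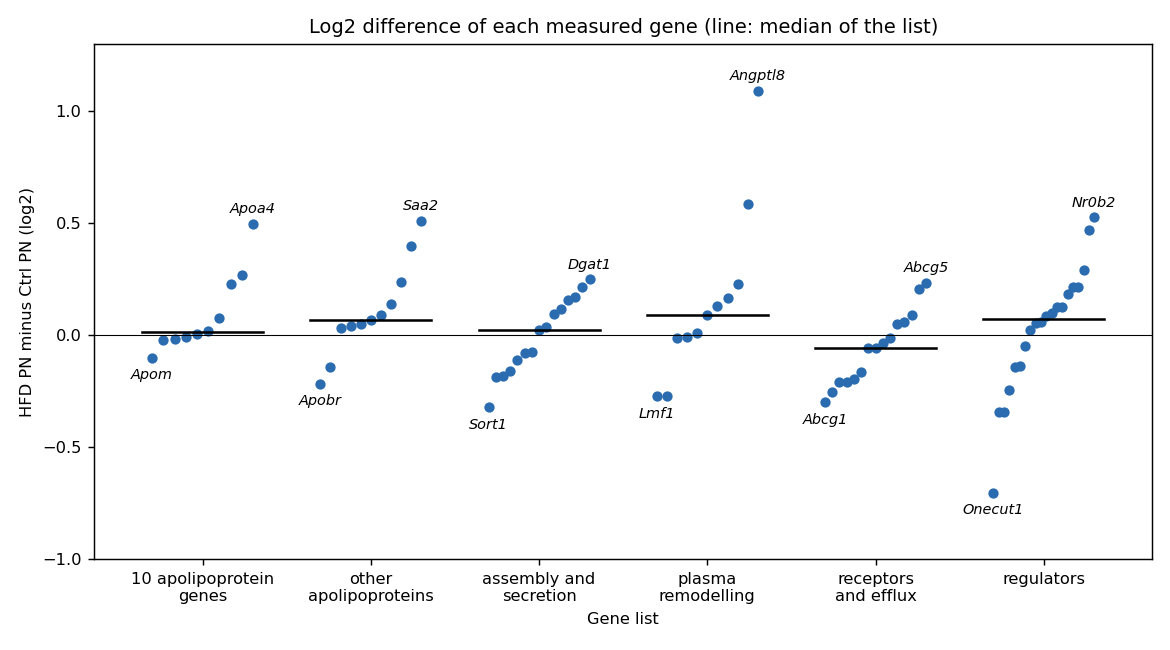
Difference HFD PN minus Ctrl PN (log2) of the genes of the 5 lipoprotein lists and of the 10 apolipoprotein genes, 1 point per gene, with a line at each list's median. The medians lay between -0.06 and 0.09, Angptl8 at 1.09 was the highest point and 3 of the 72 list genes lay under an unadjusted p of 0.05.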

How the data were processed

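Liver RNA of 4 HFD PN and 4 Ctrl PN offspring was labelled (400 ng each) and hybridised to 1 array per liver. The authors deposited log2 values made with RMA (R 3.4.3, oligo package, per the labels and the methods), a procedure of background correction, normalization of probe signals across arrays and summary into 1 value per transcript cluster. The genome build of the probes is not stated in these sources. Of 41345 clusters, 23521 named 1 gene, and 23328 of these matched RefSeq by identifier. Several genes were named by 1820 clusters and none by 16004. For the 1082 genes with more than 1 cluster, that of the highest mean was kept. Log2 values lay between 0.216 and 12.83. The number of arrays limits the precision.

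The 22180 genes were compared with lmFit and eBayes of limma 3.58.1, run in R 4.3.3 (HFD PN minus Ctrl PN, no covariates, no filter), with the methods' exploratory unadjusted p of 0.01 and with a Benjamini-Hochberg adjusted p of 0.05 over all genes. Intervals are 95% intervals of this fit. For single genes an exact two-sided permutation test took all 70 ways to split the livers. The procedure was tested on simulated data. The 10 genes and the pathway and marker lists were chosen with earlier results of these data known. By rule, all 10 genes were named, with the 3 smallest p of each pathway list and the 5 nearest profiles to the gene of widest range. Hnf4a, Apoc2, Mttp, Saa2 and the marker genes printed were named outside this rule. Listed genes without a cluster naming that gene alone were not analysed here. Alternatives averaged all clusters per gene, or used arrays centred on medians or 75th percentiles, quantile normalization, dim genes left out, array weights, a variance fitted with trend and robustly, a block for the replicate number, each liver left out, HFD PN 1 and Ctrl PN 3 left out together, the methods' t-test in both forms and all clusters tested.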

Additional observations from a re-analysis of the deposited data

Results flagged for a closer look

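In 8 of the 50 groups of 4 livers examined (both groups for each of the 10 apolipoprotein genes and the 15 pathway genes named by rule), 1 liver lay farther from the other 3 than Dixon's 95% critical value of 0.829 allows, where chance gives about 1 in 20. Apoa1 was 10.21 in HFD PN 1, against 10.47 to 10.51 in the rest of the HFD PN group. Apob was 8.99 in HFD PN 1, against 9.99 to 10.09 in the rest of the HFD PN group. Apoc3 was 5.08 in HFD PN 3, against 5.20 to 5.21 in the rest of the HFD PN group, a gap of little more than 0.1 log2 units. Apoa4 was 4.14 in Ctrl PN 3, against 4.69 to 4.77 in the rest of the Ctrl PN group. Apoh was 9.02 in Ctrl PN 3, against 9.48 to 9.55 in the rest of the Ctrl PN group. Apon was 6.70 in Ctrl PN 3, against 7.23 to 7.31 in the rest of the Ctrl PN group. Apoe was 7.62 in Ctrl PN 4, against 7.20 to 7.21 in the rest of the Ctrl PN group, and Cd36 was 6.71 in Ctrl PN 4, against 6.27 to 6.31. In 5 of the 8 cases the liver was HFD PN 1 or Ctrl PN 3, whose arrays stood apart across all genes.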

How the results depend on the processing

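None of the 10 apolipoprotein genes reached an unadjusted p under 0.01 or an adjusted p under 0.05 under any alternative run. Of 200 values of these genes under the alternatives, 168 kept their direction and side of the threshold and 32 changed sign, for genes whose difference lay within 0.1 of 0. When arrays were centred on their medians, the differences of Apoa1, Apoa2 and Apoh were 0.0198, 0.0138 and 0.00953. Quantile normalization gave 0.0405 for Apoa1, 0.00295 for Apoa2 and -0.0525 for Apoc3. Array weights gave 0.0162 for Apoa1, -0.00423 for Apoc3 and 0.0286 for Apoh. Centring on 75th percentiles gave -0.000379 for Apoc1 and -0.0149 for Apoc3. Without both HFD PN 1 and Ctrl PN 3, the values were 0.00381 for Apoa1, 0.0163 for Apoa2 and -0.00723 for Apoc3. Leaving out 1 liver at a time gave -0.0650 to 0.0590 for Apoa1, -0.0489 to 0.0130 for Apoa2, -0.149 to 0.345 for Apob, -0.0370 to 0.0749 for Apoc1, -0.0228 to 0.0351 for Apoc3 and -0.144 to 0.121 for Apoh. The median of the 10 genes ranged from -0.0122 to 0.0901 as single livers were left out, and the number of positive differences was 9 with median centring and 4 with 75th percentile centring, against 6.

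Of the 72 pathway genes, 0 passed an unadjusted p of 0.01 in limma, 3 passed 0.05, 2 passed 0.01 with array weights (Angptl4 and Pla2g7), 3 without both arrays that stood apart (A1cf, Angptl4 and Nr1d1), and 1 with each form of the methods' t-test (Pla2g7), and 0 to 3 as single livers were left out (3 without HFD PN 1: A1cf, Angptl4 and Nr1d1; 1 without HFD PN 3: Esrra). Over all genes the count at 0.01 was 123, 426 with array weights, 492 without HFD PN 1, 496 without both arrays and 50 without HFD PN 4. The cause of these changes was not tested. Deviations of same-numbered livers from their group means correlated across all genes at -0.303, 0.291, -0.407 and 0.161. HFD PN 1 and Ctrl PN 3, the 2 arrays that stood apart, correlated at 0.59. With deviations centred within 4 livers and 2 such arrays, these values cannot decide whether the numbers pair the livers. With the replicate number as a block 73 genes passed 0.01 and none of the 10 apolipoprotein genes did.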
